A study of Drosophila melanogaster with 12 samples.

Results

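The Toll, Imd and Tep immune genes described here are 10 genes: Tl, dl, Dif, cact, imd, Rel, PGRP-LC, Tep1, Tep2 and Tep4. They were taken by gene name from the authors' deposited tables, where each is named in 1 row of its own, out of 15904 gene rows. RNA came from eye discs of Drosophila melanogaster larvae in the wandering stage of the third instar, the epithelium that forms the compound eye, in 12 samples of 30 disc pairs each, 3 samples per group.

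Every group carried sev-GAL4 over UAS-GFP in a w1118 background, so that any UAS line was driven in the sevenless-expressing subset of disc cells and not in the whole disc. The EP3037 group carried EP3037 over UAS-RasV12, and its label says that hsrω, a long noncoding RNA, is up. The RNAi group carried UAS-hsr{omega}RNAi over UAS-RasV12, and its label says that hsrω is down. The Ras group carried UAS-RasV12, a constitutively active Ras, over dco2. The control carried dco2 over a wild-type chromosome and no activated Ras. The dco2 allele is thus listed in the Ras and control groups alone, and its part in any difference from the EP3037 or RNAi group cannot be told apart from that of the hsrω lines. Hsromega itself stood at 606 FPKM in the EP3037 group, 398 in the RNAi group, 389 in the Ras group and 543 in the control, and 0 of its 6 comparisons were called by Cuffdiff. The groups are therefore named by their labels.

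Toll and Imd are the 2 NF-κB pathways of the fly. In the Toll pathway the cleaved ligand Spätzle binds the receptor Toll (gene Tl), the inhibitor Cactus (cact) is degraded, and the NF-κB factors Dorsal (dl) and Dif enter the nucleus; the same pathway patterns the dorsoventral axis of the embryo. In the Imd pathway the receptor PGRP-LC binds bacterial peptidoglycan and signals through the adaptor Imd to the NF-κB factor Relish (Rel), which is cut before it acts. Their best known targets are antimicrobial peptide genes of the fat body. The Tep genes encode secreted thioester proteins related to vertebrate complement, made largely by blood cells (haemocytes) and fat body. Both pathways are switched by cleavage and degradation of proteins, which RNA levels do not record.

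Levels are the authors' FPKM (fragments scaled by transcript length and by library size), which can be compared between genes. Each level is the authors' value for a whole group, with no values of single samples behind it here, so levels carry no SD, and the read depth is unknown. Coordinates are those of build dm6. A difference was called when the q-value of the authors' Cuffdiff test was at or under 0.05. All 10 genes were tested in all 6 comparisons. Of these 60 tests 3 were called, Tep1 in a pair of comparisons and PGRP-LC in 1. Among all tested rows, between 0.643% and 1.74% were called in each comparison.

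**Figure D1:**
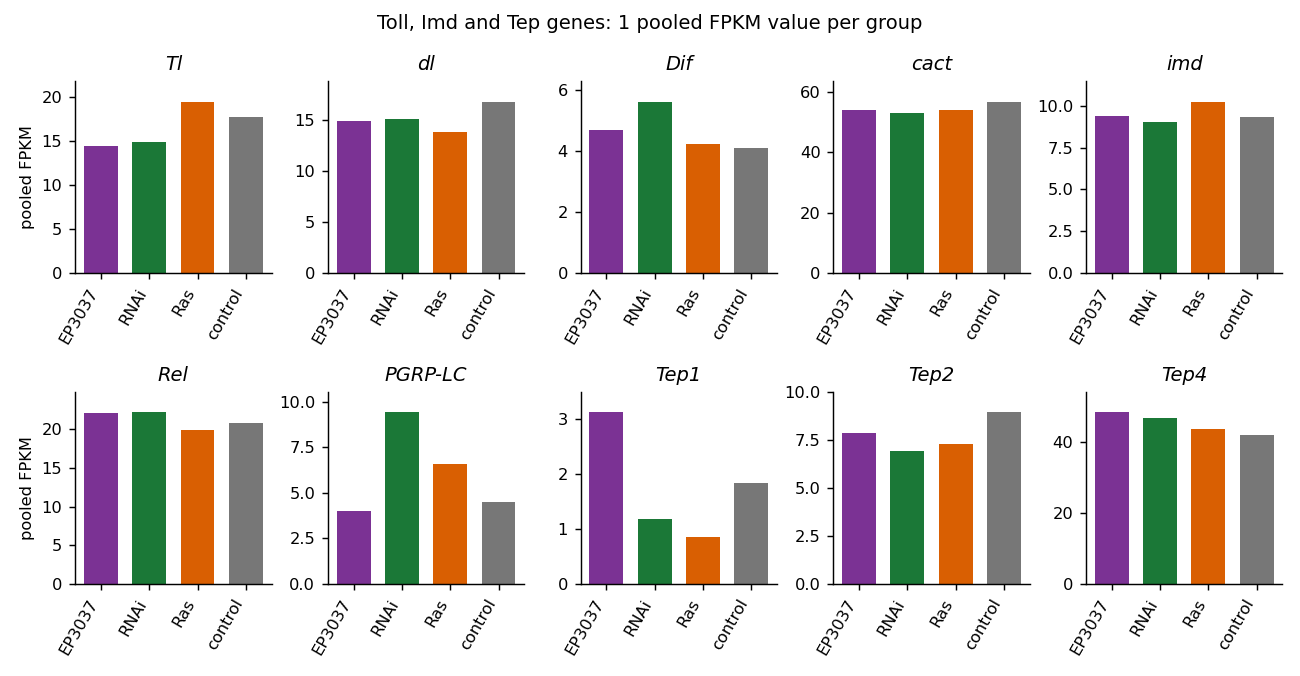
Pooled FPKM of each of the 10 genes (bars, linear axis from 0, 1 value per group, no error available) in the EP3037, RNAi, Ras and control groups. Tep1 is highest in the EP3037 group at 3.11 FPKM and PGRP-LC in the RNAi group at 9.42 FPKM, while cact lies between 53.0 and 56.7 FPKM.

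The inhibitor, the adaptor and the NF-κB factors of both pathways were expressed in the disc in every group. The ratio of highest to lowest level was 1.07 for cact, 1.11 for Rel, 1.14 for imd, 1.21 for dl and 1.37 for Dif, the last of them above the median of 1.27 over rows at 1 FPKM or more in all groups. cact (chromosome 2L, 16313036 to 16326207, minus strand, 5 annotated transcripts) had the highest level of the 10 genes. It stood at 53.9 FPKM in the EP3037 group, 53.0 in the RNAi group, 53.8 in the Ras group and 56.7 in the control. Its ratio of highest to lowest lay at percentile 4.22 of those 8795 rows, and that of Dif at percentile 64.9. cact overlaps fzy, a cell cycle gene on the opposite strand, and its row in the authors' tables begins at 16310956, outside the gene.

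The 2 NF-κB factors that cact restrains lie 3669 bp apart on chromosome 2L, with CG5043 and CG33928 between them. dl (17436830 to 17450364, minus strand) stood at 14.9 FPKM in the EP3037 group, 15.0 in the RNAi group, 13.8 in the Ras group and 16.8 in the control. Dif (17413248 to 17433161, minus strand) was lower, at 4.69, 5.61, 4.23 and 4.09 FPKM in the same order of groups. dl was thus the more abundant of the pair in every group, by 3.18 times in the EP3037 group, 2.68 times in the RNAi group, 3.27 times in the Ras group and 4.10 times in the control. Neither gene was called, the smallest p over the 6 comparisons being 0.219 for dl and 0.312 for Dif in the authors' deposited tables. Dif overlaps CG15141 and lncRNA:CR44409 on the opposite strand, and its row in the authors' tables begins at 17410641, outside the gene.

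Rel, the NF-κB factor of the Imd pathway (chromosome 3R, 9044183 to 9047977, minus strand), stood at 22.1 FPKM in the EP3037 group, 22.2 in the RNAi group, 19.9 in the Ras group and 20.8 in the control. It was the most abundant of the 3 NF-κB genes in every group and overlaps Nmdmc, a gene on its own strand, so reads of these genes cannot be assigned with certainty. The row of Rel in the authors' tables runs from 9042508 to 9052231, past both ends of the gene. imd, the adaptor (chromosome 2R, 18409796 to 18413599, minus strand), stood at 9.40, 9.005, 10.2 and 9.30 FPKM in the same order. It overlaps Dp1 and GstE9 on the opposite strand, and its row in the authors' tables runs from 18409048 to 18421123, past both ends of the gene. For Ras against control, changes of like size had unlike p-values in the authors' deposited table: a log2 change of 0.14 had p = 0.927 for imd, and one of 0.13 had p = 0.505 for Tl.

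Tl, the Toll receptor (chromosome 3R, 26799041 to 26842403, plus strand), stood at 14.5 FPKM in the EP3037 group, 14.9 in the RNAi group, 19.5 in the Ras group and 17.8 in the control. It was highest in the Ras group and lower in both groups that combined RasV12 with an hsrω line. The log2 change from Ras was -0.43 in the EP3037 group (p = 0.0313, q = 0.648) and -0.39 in the RNAi group (p = 0.0399, q = 0.730) in the authors' deposited tables. Cuffdiff called neither change. These comparisons share the Ras samples.

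PGRP-LC (chromosome 3L, 9338810 to 9348336, plus strand, 10 annotated transcripts) encodes the receptor at the head of the Imd pathway and was the most variable of the 9 genes that stayed at or above 1 FPKM. It stood at 4.02 FPKM in the EP3037 group, 9.42 in the RNAi group, 6.59 in the Ras group and 4.51 in the control. The RNAi group was highest, the Ras group next, and the EP3037 group and the control were closest to each other. The ratio of its highest to its lowest level, 2.34, lay at percentile 96.5 of rows at 1 FPKM or more.

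PGRP-LC fell 2.34-fold in the EP3037 group against the RNAi group, a log2 change of -1.23 (p = 0.00015, q = 0.0192 in the authors' deposited table). In this comparison 1.74% of 10981 tested rows were called, 1.52% as lower, and among 167 lower rows the fold of PGRP-LC ranked 23. RNAi against control gave 2.09-fold with q = 0.0609 in the authors' deposited table, just outside the threshold. The remaining comparisons were not called, with a log2 change of -0.71 for EP3037 against Ras (p = 0.0280), 0.52 for RNAi against Ras (p = 0.0584), 0.55 for Ras against control (p = 0.0924) and -0.16 for EP3037 against control (p = 0.633) in the authors' deposited tables.

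PGRP-LC lies between 2 other genes of its family on the same strand, which encode membrane proteins related to it. PGRP-LA ends 474 bp before it and PGRP-LF begins 1273 bp after it. PGRP-LA, chosen for mention after its values were seen, stood at 0.766 FPKM in the EP3037 group, 2.51 in the RNAi group, 1.04 in the Ras group and 0.836 in the control. It too was highest in the RNAi group, and its log2 change of -1.71 in the EP3037 group against the RNAi group was not called (p = 0.0017, q = 0.114 in the authors' deposited table). PGRP-LF, an inhibitory member of the family also named after its values were seen, stood at 1.66, 2.08, 1.59 and 1.27 FPKM in the same order (p = 0.805 for EP3037 against RNAi in the authors' deposited table). UGP, the next gene after PGRP-LF on the opposite strand, stood at 28.2, 24.0, 24.9 and 25.7 FPKM.

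Rows were ranked by likeness to PGRP-LC over the 4 groups, by Euclidean distance of mean-centred log2 FPKM. The search covered 8340 rows that name 1 gene each and were at 1 FPKM or more in all groups. The closest of these were Atx2, na, HERC2, dp and uif, at distances of 0.108 to 0.146. Atx2 stood at 20.5 FPKM in the EP3037 group, 47.0 in the RNAi group, 34.7 in the Ras group and 21.4 in the control. The pattern rests on 4 pooled values.

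**Figure D2:**
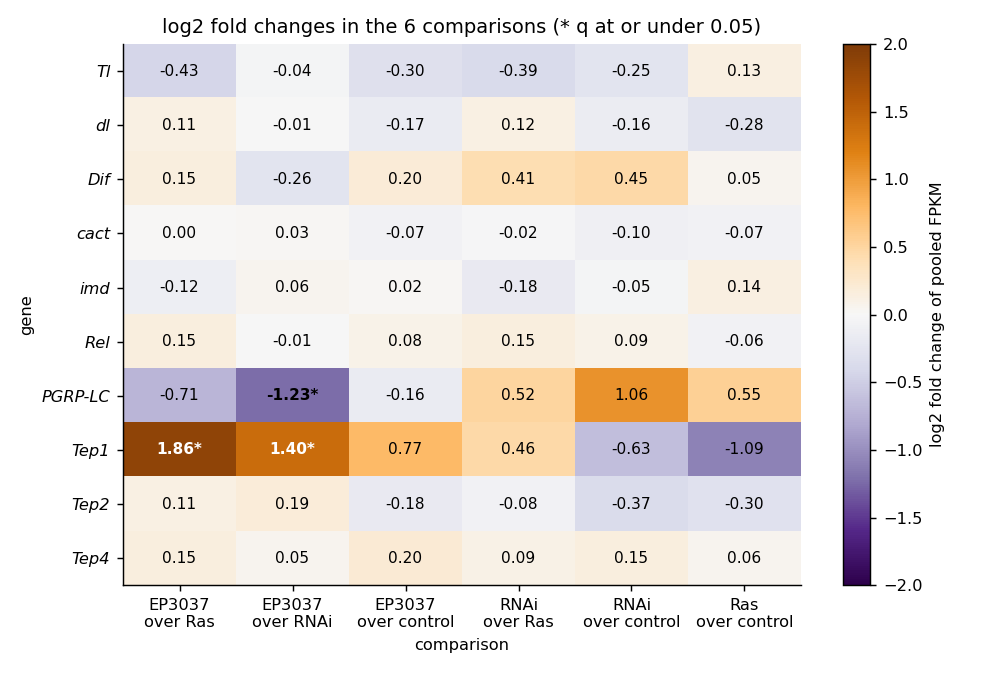
Log2 fold change of pooled FPKM for the 10 genes (down) in the 6 comparisons (across), coloured from purple (lower in the first-named group) to orange (higher); an asterisk marks a q-value at or under 0.05. The 3 marked cells are Tep1 in EP3037 over Ras (1.86) and over RNAi (1.40), and PGRP-LC in EP3037 over RNAi (-1.23).

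The thioester protein genes differed from one another in level and in how they varied. Tep4 (chromosome 2L, 19548507 to 19556451, plus strand) was the most abundant of the 3, at 48.4 FPKM in the EP3037 group, 46.7 in the RNAi group, 43.8 in the Ras group and 42.1 in the control. Tep2 (2L, 7693727 to 7701601, minus strand) stood at 7.89, 6.93, 7.30 and 8.96 FPKM in the same order. Neither was called in any comparison, the smallest p being 0.325 for Tep4 and 0.0728 for Tep2 in the authors' deposited tables. Their highest levels were 1.15 and 1.29 times their lowest. The row of Tep2 in the authors' tables begins at 7693030, outside the gene.

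Tep1 (2L, 15888640 to 15893811, minus strand, 1 transcript of 4219 nt) was the scarcest of the 10 genes and the one that varied most. It stood at 3.11 FPKM in the EP3037 group, 1.18 in the RNAi group, 0.858 in the Ras group and 1.83 in the control. The EP3037 group was highest and the Ras group lowest, 3.63 times apart. Tep4 exceeded Tep1 by 15.6 times in the EP3037 group, 39.6 times in the RNAi group, 51.0 times in the Ras group and 23.0 times in the control. Tep1 overlaps no annotated gene, and its nearest neighbours, CG31735 at 1643 bp and CG44475 at 5450 bp, were at 0.0723 FPKM or less in every group.

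Tep1 rose 3.63-fold in the EP3037 group against the Ras group, a log2 change of 1.86 (p = 5e-05, q = 0.00789 in the authors' deposited table), the smallest p and q in the tables, which 418 tests share. Among the 20 rows called higher there, 0.181% of 11062 tested rows, its fold ranked 9. Tep1 also rose 2.64-fold in the EP3037 group against the RNAi group, a log2 change of 1.40 (q = 0.00789 in the authors' deposited table), where 24 rows, or 0.219%, were called higher and its fold ranked 17. The dco2 allele is in the labels of neither group of this last pair. The EP3037 against Ras call rests on a level under 1 FPKM in the Ras group, and it is not tested when only rows at 1 FPKM or more in both groups are kept.

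The other differences of Tep1 were not called. Against the control its log2 change was 0.77 in the EP3037 group (q = 0.458), -0.63 in the RNAi group (q = 0.784) and -1.09 in the Ras group (q = 0.183) in the authors' deposited tables, with unadjusted p of 0.0158, 0.0477 and 0.0034. Between the RNAi and Ras groups the log2 change was 0.46 (p = 0.192 in the authors' deposited table).

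**Figure D3:**
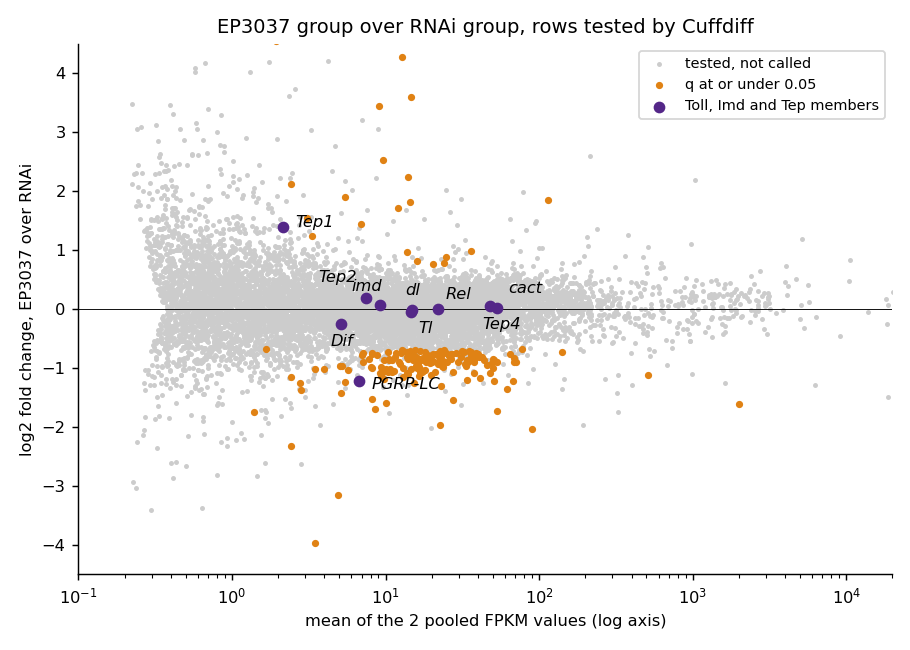
Log2 fold change of the EP3037 group over the RNAi group against the mean of both pooled FPKM values (log axis) for 10926 tested rows with a value above 0 in each group (grey not called, orange called at q at or under 0.05, purple the 10 genes; 10 rows fall outside the axes). Tep1 at 1.40 and PGRP-LC at -1.23 lie apart from the other 8 members, which are between -0.26 and 0.19.

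Counted by comparison, calls among the 10 genes were few, as they were in the whole table. EP3037 against Ras gave 1 higher and 0 lower, where 0.786% of tested rows were called in either direction. EP3037 against RNAi gave 1 higher and 1 lower, against 1.74% of all tested rows. Cuffdiff called 0 of 10 in RNAi against Ras (0.743% of tested rows), Ras against control (0.773%), RNAi against control (1.72%) and EP3037 against control (0.643%). By unadjusted p (0.05 or less) these last 4 comparisons held 1, 1, 2 and 1 members, against 5.2%, 4.63%, 8.74% and 3.52% of tested rows. By the same measure EP3037 against Ras held 3 members, against 5.89%, and EP3037 against RNAi held 2, against 9.43%. The median log2 change of the 10 genes lay between -0.07 and 0.11 in the 6 comparisons, and that of all tested rows between -0.05 and 0.05. The smallest fold called among rows at 1 FPKM or more was between 1.58 and 1.68 in each comparison, so differences of the size seen for dl, cact, Rel or Tep4 were below any that the test called.

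Other genes of the pathways were counted from lists of known components. Of 42 further Toll pathway genes 35 were tested in each comparison, and 2 were called, both lower in the EP3037 group. By comparison, 1 was called in EP3037 against Ras, 2 against RNAi and 2 against the control. The shares of all tested rows called there were 0.786%, 1.74% and 0.643%. GNBP3, a recognition protein for fungal glucans upstream of Toll, stood at 27.2 FPKM in the EP3037 group, 44.9 in the RNAi group, 52.9 in the Ras group and 61.8 in the control. It was lowest in the EP3037 group and fell there 1.94-fold against Ras (q = 0.00789), 1.65-fold against RNAi (q = 0.0140) and 2.27-fold against the control (q = 0.00789) in the authors' deposited tables. ea, the protease Easter that cleaves Spätzle in the embryo, stood at 3.26, 7.67, 5.58 and 8.38 FPKM over those groups. It fell 2.35-fold in the EP3037 group against RNAi (q = 0.0325) and 2.57-fold against the control (q = 0.0140) in the authors' deposited tables. The list held no other call, and its median log2 change was -0.06 for EP3037 against Ras and -0.02 for EP3037 against RNAi, beside -0.05 and 0.02 over all tested rows. The most abundant uncalled genes were lwr, the SUMO-conjugating enzyme, at 137 to 153 FPKM, and the serpin genes Spn27A (60.5 to 69.5 FPKM) and Spn88Ea (61.5 to 65.0 FPKM). Ulp1, a SUMO protease, stood at 51.2 to 54.1 FPKM.

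Of 30 further Imd pathway genes 28 were tested and 1 was called, in EP3037 against Ras, where 0.786% of all tested rows were called. dnr1, an inhibitor of the caspase Dredd that cuts Relish, stood at 12.0 FPKM in the EP3037 group, 10.3 in the RNAi group, 6.75 in the Ras group and 9.80 in the control, and rose 1.78-fold in the EP3037 group against Ras (q = 0.0140 in the authors' deposited table). The list's median log2 change was -0.01 in that comparison and 0.06 for EP3037 against RNAi. Its most abundant members were the ubiquitin-conjugating enzyme genes eff (411 to 494 FPKM), Uev1A (151 to 181 FPKM) and ben (134 to 146 FPKM) and the nuclear cofactor gene akirin (179 to 198 FPKM), none of them called. The remaining thioester protein genes were not called either. Mcr, which encodes a septate junction protein without the thioester site, was the most abundant at 87.1 to 94.2 FPKM, and Tep3, beside Tep2 on chromosome 2L, stood at 4.65 to 6.15 FPKM.

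Antimicrobial effector genes were near the bottom of the range. Counted within each group on its own, between 4 and 6 of 32 rows reached 1 FPKM and between 6 and 13 were listed at 0. The most abundant were edin, at 6.11 FPKM in the EP3037 group, 7.30 in the RNAi group, 11.1 in the Ras group and 8.47 in the control, and Drs, the antifungal peptide Drosomycin, at 8.43, 6.47, 7.41 and 7.48 FPKM. Cuffdiff called none of the 15 or 16 rows tested in any comparison, and no comparison had more than 1 with an unadjusted p of 0.05 or less. CecB and IM18, both at 0 FPKM in the Ras group, were just outside the threshold (q = 0.0577 in the authors' deposited tables). CecB was at 0.511 FPKM in the RNAi group, for RNAi against Ras. IM18 was at 1.48 FPKM in the control, for Ras against control. Mtk (Metchnikowin) stood at 3.11, 2.56, 0.360 and 0.153 FPKM and Listericin at 1.04, 0.567, 1.10 and 2.66 FPKM over the EP3037, RNAi, Ras and control groups. The summed level of the list was 28.6, 23.9, 28.5 and 27.4 FPKM.

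**Figure D4:**
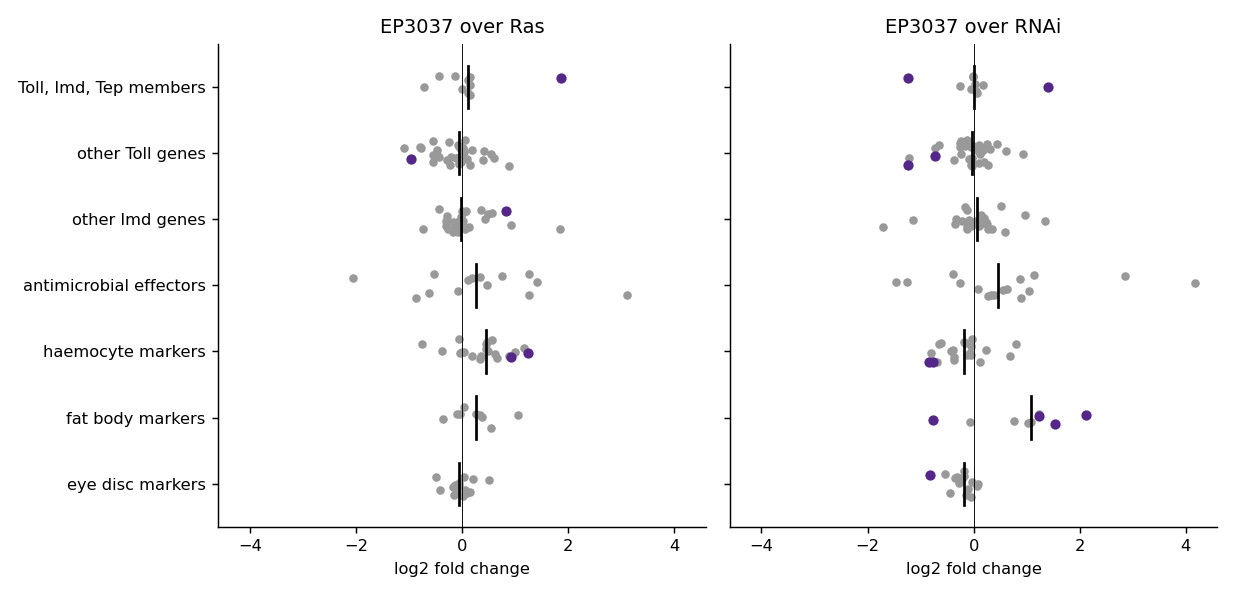
Log2 fold changes of tested genes with a level above 0 in both groups (points; purple called, grey not called; black bar the median) in 7 lists for EP3037 over Ras (left) and EP3037 over RNAi (right). The members' medians are 0.11 and 0.01; fat body markers have a median of 1.09 in EP3037 over RNAi and haemocyte markers of 0.46 in EP3037 over Ras.

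The samples were whole discs, in which more cells of a type and more RNA per cell cannot be told apart, and markers of tissues that express Tep and Imd genes moved as well. All 15 eye disc markers were between 6.37 and 209.5 FPKM in every group; Optix was called lower in EP3037 against RNAi (9.95 and 17.5 FPKM) and sev higher in RNAi against control (36.8 and 22.6 FPKM). Of 21 haemocyte markers 8 were called higher in RNAi against Ras, 2 higher in EP3037 against Ras and 2 lower in EP3037 against RNAi. Against the control, 2 were lower in the Ras group, 3 were higher and 1 lower in the RNAi group, and Cuffdiff called 0 in the EP3037 group, where 2 had an unadjusted p of 0.05 or less. No marker was at 0 in any group, and the list summed to 357 FPKM in the EP3037 group, 450 in the RNAi group, 326 in the Ras group and 344 in the control. Its largest row joins PPO3 and l(2)k09913 (89.2, 92.5, 87.2 and 97.6 FPKM in the same order). The row of ush is joined with MED15, and lz is counted among the eye disc markers too.

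The haemocyte markers did not share 1 pattern. The EP3037 group, where Tep1 was highest, was highest for 2 of the 21 markers, the RNAi group, where PGRP-LC was highest, for 14, the Ras group for 1 and the control for 4. The Ras group, where Tep1 was lowest, was lowest for 12. The 8 markers taken as defining were Hml, Pxn, He, NimC1, eater, Sr-CI, PPO1 and PPO2, and they summed to 122 FPKM in the EP3037 group, 186 in the RNAi group, 85.5 in the Ras group and 99.7 in the control. The crystal cell genes PPO1 and PPO2 made up most of that, with 83.8, 146, 64.0 and 61.1 FPKM over these groups. Both were called lower in EP3037 against RNAi, as PGRP-LC was. Both were also called higher in RNAi against Ras and against the control, where PGRP-LC was not called. In EP3037 against Ras both were higher and PGRP-LC was lower, with no call. The other 6 summed to 38.7, 40.1, 21.5 and 38.6 FPKM, lowest in the Ras group. Hml, a plasmatocyte gene, stood at 9.67, 10.8, 4.10 and 7.29 FPKM over the EP3037, RNAi, Ras and control groups. It was called higher in EP3037 against Ras, as Tep1 was. Hml was also called higher in RNAi against Ras and lower in Ras against control, where Tep1 was not called. In EP3037 against RNAi, where Tep1 was called higher, Hml was lower with no call. NimC1 was the marker called lower in RNAi against control, by 4.15-fold, where Tep1 was lower with no call. PPO1 stood at 47.9, 81.3, 37.8 and 37.0 FPKM. Called in RNAi against Ras were also the row that joins CR45660 and Pxn (9.56, 12.8, 5.00 and 10.4 FPKM in the same order) and the extracellular matrix genes Cg25C (5.01, 8.04, 3.68 and 4.69 FPKM), vkg (4.54, 7.15, 3.23 and 4.35 FPKM) and Glt (5.22, 9.10, 3.77 and 6.55 FPKM). The marker eater (3.18, 3.23, 1.41 and 2.47 FPKM) was called higher there too (q = 0.0284 in the authors' deposited table).

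The 11 names in the fat body list led to 10 different rows, of which 9 were tested. In EP3037 against RNAi 3 were higher and 1 lower, in RNAi against Ras 1 was lower, and in EP3037 against Ras 0 were called by Cuffdiff and 1 had an unadjusted p of 0.05 or less. Against the control, 3 were lower in the EP3037 group, 5 were lower and 1 higher in the RNAi group, and 4 were lower and 1 higher in the Ras group. Between 0.643% and 1.74% of all tested rows were called in each of these comparisons. The control was highest for 7 of the 10 matched markers and the RNAi group for 3, and the RNAi group was lowest for 7. The larval serum protein gene Lsp1alpha stood at 3.97, 0.907, 1.91 and 7.10 FPKM and Lsp2 at 4.69, 1.99, 3.68 and 12.1 FPKM, so both were highest in the control. The 3 higher in EP3037 against RNAi were these and Lsp1gamma (4.62, 1.59, 3.17 and 14.3 FPKM), and the lower one was the fatty acid synthase gene CG3523 (19.8, 33.7, 25.3 and 12.8 FPKM). Lsp1alpha, Lsp1gamma, Lsp2, Lsp1beta (4.53, 2.23, 4.86 and 6.65 FPKM) and Fbp1, a receptor of serum proteins (2.21, 1.303, 2.27 and 6.06 FPKM), were the 5 called lower in RNAi against control. All of these but Lsp1beta were called lower in Ras against control, and Lsp1gamma, Lsp2 and Fbp1 in EP3037 against control. Tep1 was lower than in the control in the Ras and RNAi groups and higher in the EP3037 group, with no call. CG3523 was the marker called higher in Ras and in RNAi against the control. The 5 serum protein and receptor genes summed to 20.02 FPKM in the EP3037 group, 8.02 in the RNAi group, 15.9 in the Ras group and 46.3 in the control. The 10 matched markers summed to 68.01 FPKM in the EP3037 group, 68.8 in the RNAi group, 68.002 in the Ras group and 81.6 in the control, with no marker at 0. The part of blood cells and fat body in the differences of Tep1 and PGRP-LC was not tested.

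**Figure D5:**
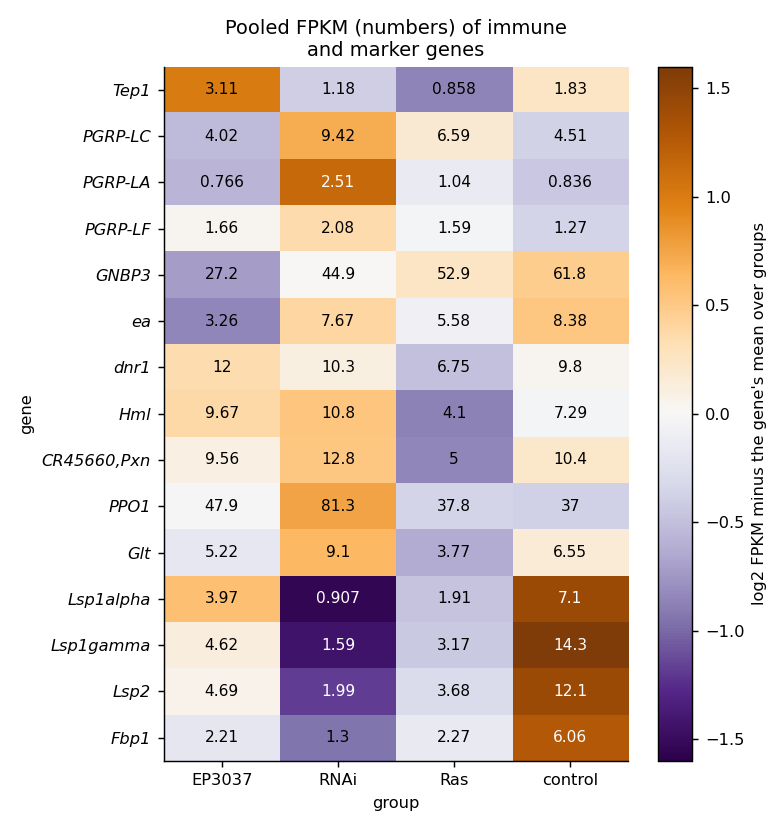
Pooled FPKM (numbers) of immune genes and of haemocyte (Hml, CR45660,Pxn, PPO1, Glt) and fat body (Lsp1alpha, Lsp1gamma, Lsp2, Fbp1) markers in the 4 groups, coloured by log2 FPKM minus the gene's mean over groups (purple low, orange high). Tep1 is highest in the EP3037 group, PGRP-LC and the 4 haemocyte markers shown in the RNAi group, and the 4 fat body markers shown in the control. The markers shown are a part of their lists. The control is highest for 7 of the 10 matched fat body markers and the RNAi group for 3. Among the 21 haemocyte markers the RNAi group is highest for 14, the control for 4, the EP3037 group for 2 and the Ras group for 1.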

How the data were processed

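RNA-seq of 12 samples was analysed from 6 deposited tables, 1 per pair of groups. Per the labels' protocols, libraries were made with a stranded kit that removes ribosomal RNA and sequenced as 50 bp read pairs. Tools named in the submitters' processing notes are Cuffdiff 2.1.1, Cufflinks, Bowtie and TopHat, and the build is dm6. For the annotation and strand setting, the sources used here give nothing. The authors deposited FPKM values pooled per group by Cuffdiff, with a p-value and a q-value per gene and comparison, per the file headers. The RNAi group entered with 4 inputs for 3 samples, per the sample names in the deposited tables. A sample was thus entered more than once in every comparison with the RNAi group. These include EP3037 against RNAi, where PGRP-LC and Tep1 were called. The effect of this on their p-values was not tested. Whether replicate samples stem from separate crosses is not in the labels, and the p-values may then reflect technical spread alone. The read depth is unknown, so no interval or floor was computed.

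Log2 fold changes were computed from the deposited FPKM with Python 3.11.15 and pandas 2.3.3. The deposited q-values matched a Benjamini-Hochberg adjustment over 65927 tests within 1.56e-05. A row was called at status OK and q at or under 0.05. The adjustment and the length correction were tested on simulated data. Gene positions, overlaps and transcript lengths are from Ensembl's annotation of BDGP6, which has dm6 coordinates; 98.6% of rows had a length.

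The members and lists were chosen with earlier results of these data known. Named genes were the 10 members, the called genes of each list (at most 6, smallest q first), and up to 4 of the most abundant uncalled genes of each immune list. Some genes outside this rule were named as well, among them NimC1, eater and other haemocyte markers. Alternatives were other q thresholds, adjustment families, a filter on low FPKM, pseudocounts, scaling and length.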

Additional observations from a re-analysis of the deposited data

Results flagged for a closer look

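The changes of Tep1 and PGRP-LC from the Ras group differed between the EP3037 and RNAi groups, as tested by the direct comparison of these groups. For Tep1 the log2 difference was 1.40 (EP3037 over RNAi, q = 0.00789 in the authors' deposited table), and for PGRP-LC it was -1.23 (q = 0.0192 in the authors' deposited table). The log2 change from Ras was 1.86 in the EP3037 group and 0.46 in the RNAi group for Tep1, and -0.71 and 0.52 in the same order for PGRP-LC.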

How the results depend on the processing

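No paired analysis was possible because the tables hold 1 pooled value per group and none per sample; leaving out a sample was not possible for the same reason. Some counts of called members depended on a setting. EP3037 against Ras gave 0 in place of 1 among rows at 1 FPKM or more in both groups, since Tep1 was at 0.858 FPKM in the Ras group. EP3037 against RNAi gave 1 in place of 2 at q at or under 0.01, where PGRP-LC was lost. RNAi against control gave 1 in place of 0, PGRP-LC, at q at or under 0.1, when adjusted over that comparison alone (q = 0.0367) and among rows at 1 FPKM or more (q = 0.0348). Over 36 alternatives the members' median log2 change stayed within 0.1 of its value in the comparison, between -0.07 and 0.19. With a pseudocount of 1, the log2 change of Tep1 was 1.15 for EP3037 against Ras and 0.92 against RNAi, and that of PGRP-LC was -1.05 for EP3037 against RNAi. With the length trend subtracted these were 1.93, 1.52 and -1.21.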

Other observations

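A search for rows close in pattern to Tep1 over the 4 groups was made after its values were seen. It covered 8341 rows that name 1 gene each and were at 1 FPKM or more in all groups. The closest of these were CG1909, CR43863, mthl11, CR31845 and CR44469, at distances of 0.369 to 0.513. Tep1 itself was under 1 FPKM in the Ras group (0.858), so rows as low as it were not searched. mthl11 stood at 2.997 FPKM in the EP3037 group, 1.51 in the RNAi group, 1.22 in the Ras group and 1.82 in the control. Among annotated genes within 5 kb of cact, CG31817, at 4353 bp, rose in the EP3037 group against Ras (3.78 and 1.78 FPKM, q = 0.00789 in the authors' deposited table), while cact stood at 53.9 and 53.8 FPKM.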
